A study of Bos taurus with 15 samples.

Results

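A set of 82 genes, of 21665 genes quantified, was lower in bovine fetal fibroblasts given wild-type (WT) ARGFX and in those given LEUTX than in cells given an empty plasmid, while a truncated ARGFX left most of their expression in place. ARGFX and LEUTX are paired-class homeobox genes of eutherian mammals that arose from a duplicated CRX-like gene and are normally expressed for a short time in the early embryo. Their proteins are transcription factors that bind DNA through the homeodomain, and their targets can be raised or lowered. A fibroblast does not normally express them, so a construct placed in it reports what the protein does to the transcripts of a differentiated cell.

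The cells were primary dermal fibroblasts from the torso skin of a fetus about 6 months of gestational age, used at passage 4. They were electroporated with pSF-CMV-Puro-COOH, in which the CMV promoter drives the insert. The control group (n = 4) received the empty plasmid, and the other groups received WT ARGFX (n = 4), mutant ARGFX (n = 3) or LEUTX (n = 4) in that plasmid with a C-terminal FLAG tag. The mutant carries a deletion that shifts the reading frame ahead of the homeodomain, and its insert encodes a protein cut short before that domain. Puromycin at 4 µg/mL was given to every group, controls included, and RNA was collected 72 h after transfection. Every sample came from cells of the same fetus, so the groups describe forced expression in 1 cell source. Total expected counts were 25947911 to 28163565 in the controls, 31359218 to 35178524 with WT ARGFX, 28519622 to 41554242 with mutant ARGFX and 26917853 to 35454192 with LEUTX. Of the columns with WT ARGFX, 2 carried the same header and could not be tied to a replicate number, so they are called unnumbered a and unnumbered b.

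Counts of the introduced genes matched the labels as far as a count per gene allows. ARGFX reached 3424 ± 720 CPM (counts per 1000000 counts of the library; mean ± SD, n = 4) with the WT construct and 5462 ± 1592 CPM (SD, n = 3) with the mutant construct, and no control sample held more than 1 count. Both constructs are counted under the same gene, so these values do not show which of them an ARGFX sample held. The authors checked the expressed version from aligned reads, which were not analysed here. LEUTX reached 1480 ± 203 CPM (SD, n = 4) in its own group and likewise no more than 1 count in any control. The fibroblast collagens were abundant in the controls, with COL1A1 at 12428 ± 1827 CPM, COL1A2 at 12289 ± 1125 CPM and COL3A1 at 2859 ± 296 CPM (SD, n = 4). Their means also differed between the groups. With WT ARGFX, the mutant and LEUTX in turn, COL1A1 was at 20967, 16324 and 14513 CPM. In the same order COL1A2 was at 20904, 17085 and 16572 CPM, and COL3A1 at 5538, 4310 and 1750 CPM. Other defining markers of fibroblasts, and those of other skin cell types, were not analysed here.

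The members were chosen by their own measured levels. A gene entered the set when its mean CPM was at least 5 in the controls, at most 0.667 of the control mean with WT ARGFX and with LEUTX, and at least 0.8 of it with the mutant. The rule left out 9 listed identifiers, none of which met the limits. The differences from control and the difference between WT and mutant ARGFX are therefore a description of the choice. Where calls for them are given, they stand beside the share over all genes and nothing is read from them. The rule left the difference between LEUTX and WT ARGFX less constrained, although not free, and that comparison is given last. The deposited table gives the members by identifier only, and no member could be matched to a gene name. The members are therefore described by level and rank, and the function of single members is not given.

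The set was one edge of a larger group. Of the 10258 genes with a control mean of at least 5 CPM, 586 were at or below 0.667 of control with both WT ARGFX and LEUTX, and in 504 of these the mutant was below 0.8 of control as well. The mutant ratio lay below 0.6 in 177 of the 586, between 0.6 and 0.7 in 152, between 0.7 and 0.8 in 175 and between 0.8 and 0.9 in 56. The 82 members thus sat at the upper end of a graded range rather than apart from it. The genes nearest the mutant limit had ratios of 0.8004 and 0.8019 on the inside and 0.7991 and 0.7967 on the outside. At the WT limit the nearest ratios were 0.6648 and 0.6645 inside and 0.6687 and 0.6688 outside, and at the LEUTX limit 0.666 and 0.665 inside and 0.674 and 0.682 outside. At the control limit the nearest means were 5.02 and 5.11 CPM inside and 4.92 and 4.46 CPM outside.

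Expression of the members in the controls ranged from 5.02 to 776 CPM with a median of 19.1 CPM, against 32.4 CPM over all genes that reached the limit of 5 CPM. Of the members, 22 were below 10 CPM and 10 were at or above 100 CPM. The median level was 11.4 CPM with WT ARGFX, 17.0 CPM with the mutant and 8.50 CPM with LEUTX. Relative to control, WT ARGFX left a median of 0.617 of expression (range 0.0910 to 0.665), the mutant 0.861 (0.8004 to 2.49) and LEUTX 0.401 (0.0125 to 0.666). Over all 10258 genes these medians were 0.970, 0.988 and 0.911. In bulk RNA, fewer cells of a type and less RNA per cell cannot be told apart, so a lower level here means less of the transcript in the whole culture.

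The WT and LEUTX decreases had different depths. With WT ARGFX, 50 members lay between 0.6 and the limit of 0.667, and only 12 were at or below 0.5 of control. With LEUTX, 17 members lay in that upper band, 51 were at or below 0.5, and 8 were at or below 0.1. The members' WT ratios were thus crowded against the limit that selected them, whereas the LEUTX ratios were spread over the whole range. The neighbouring 504 genes had a median ratio of 0.519 with WT ARGFX, 0.663 with the mutant and 0.441 with LEUTX, so at the median the members had the shallower WT decrease and the deeper LEUTX decrease. The 81 genes at or below 0.5 of control with all 3 constructs had medians of 0.126, 0.368 and 0.0454.

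**Figure D1:**
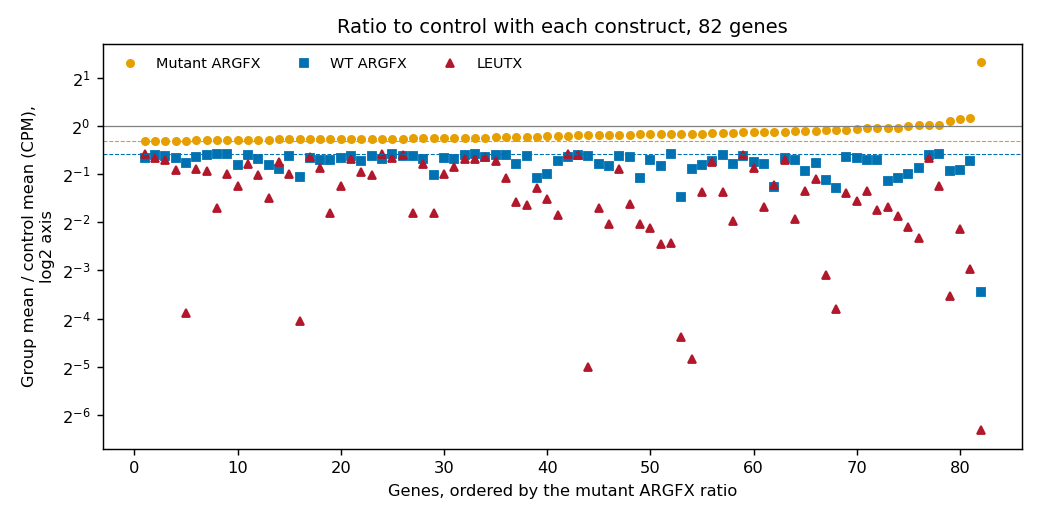
Mean CPM with each construct as a ratio to the control mean (vertical axis, log2 scale) for the 82 genes, ordered along the horizontal axis by their ratio with mutant ARGFX; dashed lines mark the limits of 0.8 and 0.667. WT ARGFX points lie mostly between 0.6 and 0.667, whereas LEUTX points reach 0.0125.

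With the mutant, most members lay in the band just above the limit that admitted them. The mutant ratio was between 0.8 and 0.9 in 56 members, between 0.9 and 1 in 18 and above 1 in 8. In edgeR's fit, which gives log2 fold changes relative to the scaling of all genes, the median over the members was −0.64 with WT ARGFX, −1.22 with LEUTX and −0.19 with the mutant, against 0.02, −0.03 and 0.01 over all genes tested. The mutant change was negative in 74 members and positive in 8. All mutant samples were below all control samples in 19 members, while the same was true of 17.8% of the 10258 genes. By edgeR's quasi-likelihood test (Benjamini-Hochberg adjusted p under 0.05 and fold change over 1.5), 0 members were called lower with the mutant (background 2.57%) and 0 higher (background 1.26%). At any fold change 4 were called lower (background 5.99%), all with ratios of at most 0.816, and 0 higher (background 4.26%). At an unadjusted p under 0.05 in edgeR, 19 were lower (background 13.2%) and 0 higher (background 12.3%). DESeq2 called 7 lower at any fold change (background 8.17%) and 0 with the fold limit (background 3.02%). The rule admitted no gene below 0.8 with the mutant, so nothing is read from these counts.

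Sample by sample, the groups kept this order. The median over the members, as log2 of CPM plus 0.5 minus the control mean, was 0.05, −0.08, 0.12 and −0.09 in control replicates 1 to 4. With WT ARGFX it was −0.61 and −0.62 in the numbered samples, −0.57 in unnumbered a and −0.95 in unnumbered b. With the mutant it was −0.20, −0.20 and −0.14, and with LEUTX −1.17, −1.17, −1.26 and −1.31. Neighbouring groups did not overlap on this summary, with the mutant samples between the controls and WT ARGFX and the LEUTX samples lowest. Summed over the 82 genes, expression was 4285 to 4782 CPM in the controls, 3803 to 3921 CPM with the mutant, 2377 to 2735 CPM with WT ARGFX and 1507 to 1624 CPM with LEUTX. The same summary over all 10258 genes lay between −0.04 and 0.05 in the controls, the mutant and the other WT samples, at −0.14 in WT unnumbered b, and between −0.15 and −0.08 with LEUTX.

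**Figure D2:**
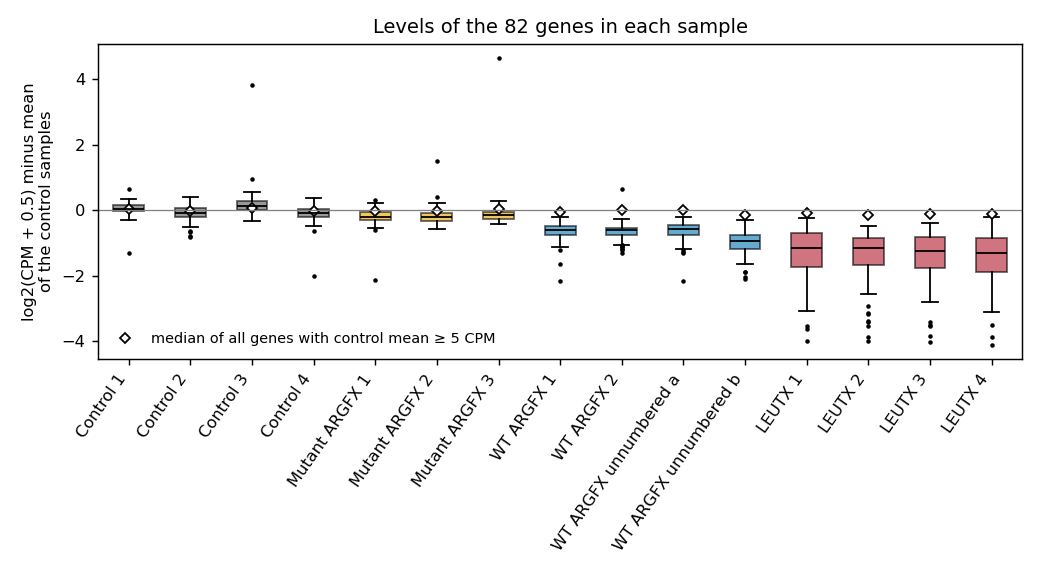
Distribution over the 82 genes of log2(CPM + 0.5) minus the control mean in each of the 15 samples (boxes, median and quartiles), with diamonds for the median of all genes with a control mean of at least 5 CPM. The LEUTX medians, −1.31 to −1.17, lie below every WT ARGFX median, and WT unnumbered b at −0.95 lies apart from the other WT samples.

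Membership turned on single samples, among them WT ARGFX unnumbered b and control replicate 3. Unnumbered b held the lowest WT value for 56 of the 82 members (68.3%), compared with 51.9% of the 10258 genes. Taken alone, 76 members met the WT limit in unnumbered b, against 52 and 59 in the numbered samples and 46 in unnumbered a. Without unnumbered b, 57 genes met the rule, of which 51 were members. Without control replicate 3, which held the highest control value for 41 of the 82 members, 73 genes met the rule, of which 52 were members. Leaving out any other sample kept 60 to 81 of the members. Without unnumbered b the median WT ratio of the 82 members was 0.643 with a highest value of 0.806. The LEUTX limit was met by 72 to 78 members in each single LEUTX sample. The mutant limit was met by 55 to 69 members in each single mutant sample.

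The member with the highest control expression, ENSBTAG00000009868.4, carried the pattern at the greatest depth of counts. Its levels were 826, 729, 732 and 819 CPM in the controls, 651, 685 and 579 CPM with the mutant, 353, 331, 342 and 460 CPM with WT ARGFX, and 47.5, 48.0, 46.4 and 44.3 CPM with LEUTX. No group overlapped another, and the highest WT value was that of unnumbered b, opposite to the tendency of that sample over the set. The means were 776 ± 53.5 CPM in control (SD, n = 4), 638 ± 54.4 CPM with the mutant (SD, n = 3), 371 ± 59.6 CPM with WT ARGFX (SD, n = 4) and 46.6 ± 1.64 CPM with LEUTX (SD, n = 4). The level was 2.09-fold lower than control with WT ARGFX and 16.7-fold lower with LEUTX.

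The gene with the fifth highest control level behaved differently with LEUTX. Its levels were 209, 152, 270 and 180 CPM in the controls, 200, 145 and 213 CPM with the mutant, 94.4, 93.8, 97.5 and 48.0 CPM with WT ARGFX, and 99.8, 96.3, 77.9 and 73.2 CPM with LEUTX. Here WT ARGFX and LEUTX overlapped and both lay below every control and every mutant sample, and the lowest WT value was unnumbered b. The gene with the second highest control level fell less, from 535 ± 71.1 CPM in control to 335 ± 24.0 CPM with WT ARGFX and 224 ± 19.2 CPM with LEUTX (SD, n = 4 each), with 441 ± 37.7 CPM with the mutant (SD, n = 3).

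ENSBTAG00000035147.3 had a mutant mean above control. Its levels were 34.4, 40.7, 24.4 and 26.7 CPM in the controls, 30.7, 40.9 and 33.4 CPM with the mutant, 15.1, 17.5, 19.4 and 24.2 CPM with WT ARGFX, and 3.45, 3.59, 5.02 and 3.94 CPM with LEUTX. The mutant samples lay within or just above the control range, so the ratio of 1.11 was within the spread of both groups. The highest WT sample came just below the lowest control, and every LEUTX sample was far below both.

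ENSBTAG00000053808.1 ranked first in the set for its combined WT and LEUTX decrease and for its mutant ratio, yet rested on single samples. Its levels were 0.401, 1.06, 31.2 and 0.0593 CPM in control replicates 1 to 4 and 0.00312, 5.83 and 55.3 CPM with the mutant. With WT ARGFX, replicate 2 held 2.96 CPM and the others 0.000303 to 0.0187 CPM, and with LEUTX the range was 0.000168 to 0.277 CPM. The groups overlapped, 1 control sample supplied nearly the whole control mean, and no sample held a whole-number count for this gene. Fractional counts come from dividing reads among similar transcripts. Its place in the set is uncertain, since the groups overlapped and 1 control sample supplied nearly the whole control mean. Counts were whole in all samples, to within 1e-06, for 77 of the 82 members (93.9%) and for 89.2% of the 10258 genes.

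**Figure D3:**
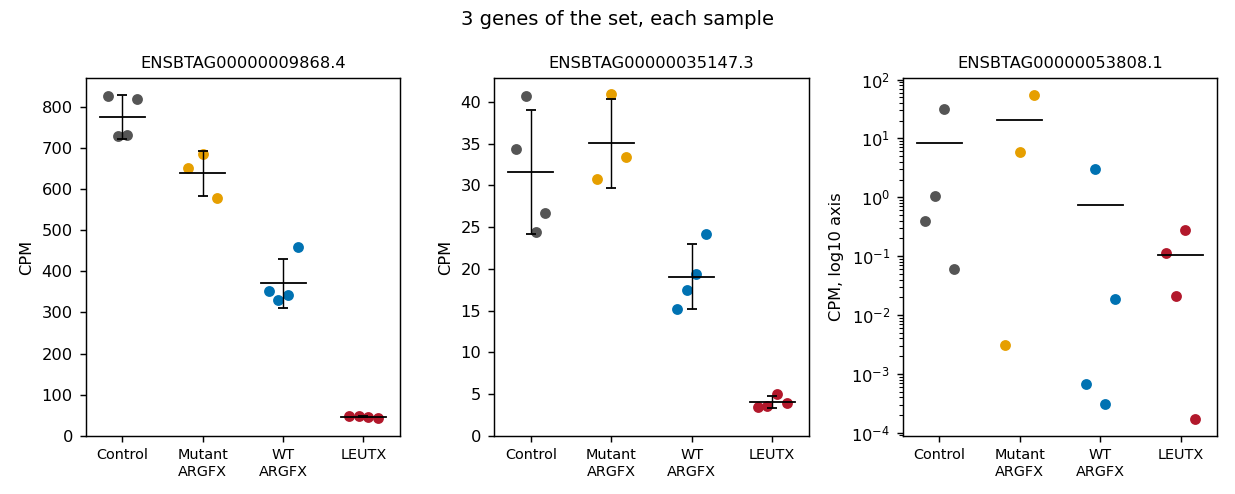
CPM in every sample for ENSBTAG00000009868.4, ENSBTAG00000035147.3 and ENSBTAG00000053808.1 (points are samples, bars the group mean and error bars the SD; the last panel has a log10 axis and no SD). In the first gene the 4 groups do not overlap; in the last, single control and mutant samples at 31.2 and 55.3 CPM stand above the rest.

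The calls of single members against control, and of WT ARGFX against the mutant, restate the limits of the rule and are given with their backgrounds as a description only. WT ARGFX was called lower than control in 56 of 82 members (background 6.86%) and LEUTX in 71 (background 14.0%), and both in 51 (background 4.46%). At any fold change the counts were 79 (background 15.2%) and 82 (background 24.8%). When the test itself required a fold change over 1.5 (glmTreat), 9 members were lower with WT ARGFX (background 2.58%) and 55 with LEUTX (background 7.68%). All WT samples were below all controls in 71 members (20.1% of the 10258 genes) and all LEUTX samples in 76 (31.2%). WT ARGFX was called lower than the mutant in 21 members (background 1.12%), with log2 fold changes from −1.27 to −0.60, and in 30 at any fold change (background 1.52%). All WT samples lay below all mutant samples in 64 members (11.1% of the 10258 genes). All these calls together, against control with both constructs and of WT ARGFX against the mutant, were met by 20 members (background 1.01%). Without mutant replicate 2 the count of members called lower with WT ARGFX than with the mutant was 12 (background 0.940%), without mutant replicate 1 it was 13 (background 0.899%), and by glmTreat it was 0 (background 0.498%).

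A core of 21 members met the rule whichever sample was left out and under both other scalings of the libraries. Their WT ratios ran from 0.411 to 0.629 with a median of 0.541, their LEUTX ratios from 0.0348 to 0.543 with a median of 0.310, and their mutant ratios from 0.816 to 1.07 with a median of 0.918. The gene with the fifth highest control level was among them and had the lowest WT ratio of the core. None of the 3 genes named above was in the core. These values were used to choose the core, so they describe it and no call is counted for it.

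Many members had a lower level with LEUTX than with WT ARGFX, in a contrast that the rule did not leave free. The LEUTX mean was below the WT mean in 74 members and above it in 8. By edgeR's quasi-likelihood test with Benjamini-Hochberg adjustment, 36 members (43.9%) were called lower with LEUTX than with WT ARGFX, where the background over 14264 genes tested was 11.8%, and 46 were not called. By glmTreat, which tests against a fold change of 1.5, 22 members were lower (background 5.86%). At any fold change 45 were called lower (background 21.0%) and 0 higher (background 17.6%). No member was higher with LEUTX, either by edgeR (background 9.82%), by DESeq2 (background 10.7%) or at an unadjusted p under 0.05 in edgeR (background 20.9%). The rule left little room for such calls, since LEUTX was held to at most 0.667 of control and 78 members had WT ratios of 0.445 or more, from which the LEUTX mean cannot be over 1.5-fold higher. Nothing is read from this count. All LEUTX samples lay below all WT samples in 39 members (22.2% of the 10258 genes), and the reverse held for 0 (16.4%). The median log2 difference was −0.48 over the members and −0.03 over all genes tested. The rule used the means of both groups, and how far it shaped the count of lower members was not tested. The shares over all genes are therefore given for scale only. Among the 504 genes with the lower mutant values, 149 (29.6%) were called lower with LEUTX and 11 higher. Among the 81 genes at or below 0.5 of control with all 3 constructs, 51 (63.0%) were called lower and 3 higher, with a median log2 difference of −1.24, so the members were not the group with the largest share. Members with WT ratios below 0.6 were called lower with LEUTX in 21 of 32 cases, and those nearer the limit in 15 of 50.

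Of the 36 called members, 8 differed by more than 4-fold. Their control means were 5.11 to 31.5 CPM, except for ENSBTAG00000009868.4, the most abundant member. ENSBTAG00000009868.4 was lower with LEUTX than with WT ARGFX by a log2 fold change of −2.97 (SE 0.14, edgeR adjusted p = 6.11e-11), and ENSBTAG00000035147.3 by −2.22 (SE 0.21, adjusted p = 3.42e-07). Among the other abundant members, the gene with the third highest control level had 198, 243, 252 and 152 CPM with WT ARGFX and 69.9, 60.6, 56.9 and 49.3 CPM with LEUTX, a log2 fold change of −1.79 (edgeR adjusted p = 4.01e-08). The greatest fitted difference, −4.36 (edgeR adjusted p = 5.36e-08), belonged to a gene with 5.34, 9.23, 10.4 and 8.06 CPM with WT ARGFX and 0.517, 0.355, 0.371 and 0.345 CPM with LEUTX. That gene had no whole-number count in any sample and its WT samples overlapped the controls, so its values are uncertain. The next, −3.90 (edgeR adjusted p = 4.56e-09), belonged to a gene with whole counts and means of 4.02 ± 0.789 CPM with WT ARGFX and 0.261 ± 0.102 CPM with LEUTX (SD, n = 4 each). In each of these the LEUTX samples were all below the WT samples. All members were chosen on the means of both groups, so the p-values of single members are given as a description. ENSBTAG00000053808.1 gave −2.69 with an SE of 2.71 (edgeR adjusted p = 0.474) and was not called. On the 13 samples with a replicate number it gave −3.61 (edgeR adjusted p = 0.348), and with the replicate number as a block −6.21 (edgeR adjusted p = 0.000735), so the call depended on the block.

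Other members differed less or not detectably between the constructs. The gene with the fifth highest control level differed by 0.11 (SE 0.19, edgeR adjusted p = 0.696) between LEUTX and WT ARGFX. The gene with the second highest differed by −0.54 (edgeR adjusted p = 0.00141), which passed the test but not the fold limit, and all its LEUTX samples lay below its WT samples. The 36 called members had a median control level of 15.1 CPM, a median LEUTX ratio of 0.257 and a median WT ratio of 0.577, and the 46 others had 27.6 CPM, 0.542 and 0.630. The mutant ratio was 0.891 at the median in the called members and 0.839 in the others. Whether these 2 divisions of the set differ was not tested.

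**Figure D4:**
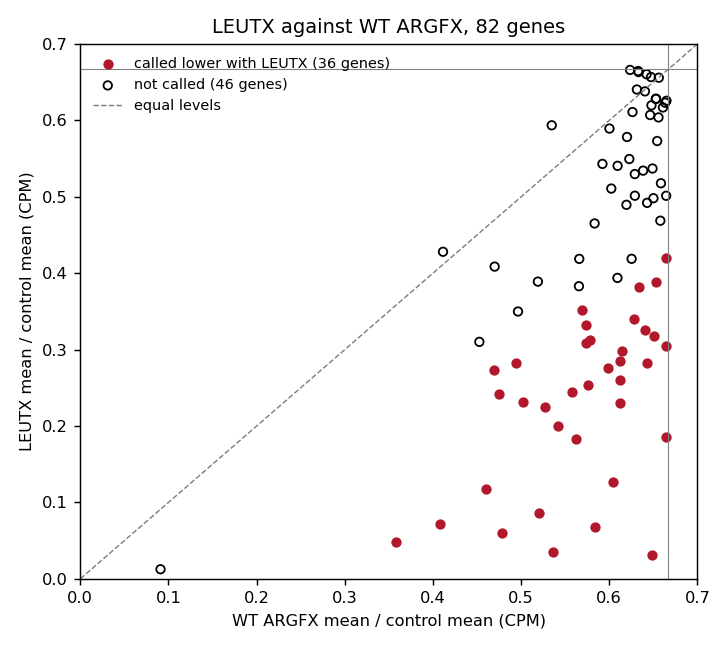
Ratio to the control mean with WT ARGFX (horizontal axis) and with LEUTX (vertical axis) for the 82 genes, both on linear scales. Filled points are the 36 genes called lower with LEUTX than with WT ARGFX and open points the 46 not called. The filled points spread downwards, with a median LEUTX ratio of 0.257, while most points crowd towards the WT limit of 0.667.

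Across the 15 samples the members followed their common profile to different degrees. Pearson's r of each member with the median profile of the set ran from 0.480 to 0.984 with a median of 0.912, and 47 members exceeded 0.9. All members were measured in the same 15 samples and were chosen on them, so the values are a description. Outside the set, 302 genes also exceeded 0.9, and the 5 nearest, at 0.986 to 0.992, were all genes lowered by WT ARGFX and LEUTX with a mutant ratio below 0.8. Replicates of the members, which are less abundant, had a median within-group SD of log2 level of 0.209 in the controls, 0.214 with WT ARGFX, 0.130 with the mutant and 0.157 with LEUTX, against 0.169, 0.173, 0.0968 and 0.123 over the 10258 genes.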

How the data were processed

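RNA-seq of 15 samples was analysed from a single gene table. The authors trimmed reads with Trimmomatic, quantified transcripts with kallisto 0.46.1 against ARS-UCD1.2 and summarised them to genes, and the deposited values are expected counts (estimated counts, of which 93.1% were whole numbers to within 1e-06). CPM was the expected count divided by the column sum, times 1000000. For testing, expected counts were rounded, genes were filtered with filterByExpr (14264 kept), and a quasi-likelihood model over all 15 samples was fitted in edgeR 4.0.16 (R 4.3.3) with TMM scaling. Calls required a Benjamini-Hochberg adjusted p under 0.05 and a fold change over 1.5. DESeq2 1.42.0, glmTreat, other scalings, other filters and leaving out each sample were alternatives. Simulated counts were used to try the edgeR test of LEUTX against WT ARGFX only. The selection rule, the other comparisons and the alternatives were not tried on simulated data.

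The members and lists were chosen with earlier results of these data known. The genes named were the member with the lowest product of WT and LEUTX ratios, that with the highest control mean and those with the highest mutant ratios. The table gives the members by identifier only and no name table matched a member. Gene lists by symbol, promoters, proteins and sequences were therefore not analysed here. One mutant sample was not analysed here. The authors left it out as an outlier that grouped with WT ARGFX samples in their PCA. The mutant limit of the rule was therefore applied without it. Samples came from cells of the same fetus, so p-values measure the spread between these samples, which may be technical. No pair of replicates agreed within sampling noise. Pairing by replicate number was weak among the numbered samples and could not be assessed for the unnumbered ones.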

Additional observations from a re-analysis of the deposited data

Results flagged for a closer look

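Sample WT ARGFX unnumbered b had the lowest median level over the 82 genes of its group, −0.95 against −0.62 to −0.57 (log2 relative to the control mean), and the lowest summed level, 2377 CPM against 2690 to 2735 CPM, both by a gap that Dixon's criterion marks. The genes were admitted on a WT mean that includes this sample, so its place is a description and not a test. The same sample was at −0.14 over all 10258 genes with a control mean of at least 5 CPM, where the other WT samples were at −0.04 to 0.00. ENSBTAG00000053808.1 had a single high control, 31.2 CPM in replicate 3 against 0.0593 to 1.06 CPM, and a single high WT ARGFX sample, 2.96 CPM in replicate 2 against 0.000303 to 0.0187 CPM, and its membership rests on these same values. Dixon's criterion marks about 1 in 20 groups by chance where values are not chosen. That rate is no yardstick here, since the genes were chosen on these values and the median and the sum describe the same sample.

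By a direct edgeR test, 36 of the 82 genes were called lower with LEUTX than with WT ARGFX, where 11.8% of all genes tested were called lower. The genes were chosen on the means of both groups, so the count is a description and the share over all genes is no free yardstick. The limit on LEUTX left only 4 of the 82 room to be over 1.5-fold higher with LEUTX. Among the 36 called lower were ENSBTAG00000009868.4 with a log2 fold change of −2.97 and ENSBTAG00000035147.3 with −2.22.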

How the results depend on the processing

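Membership depended on the limits: 15 genes met ratios of 0.6 and 0.9, 55 met the original limits with TMM scaling (51 of them members), 56 with DESeq2 size factors (52 members), 71 with the median per condition (55 members) and 57 to 105 when a sample was left out (51 to 81 members). The count of members lower with LEUTX than with WT ARGFX was 34 to 38 with a sample left out and 22 by glmTreat. Over all genes that contrast gave 836 lower and 777 higher by glmTreat, 2998 and 2514 with no fold limit, and 1086 and 837 among genes with mean CPM over 5, while leaving out a sample gave 1498 to 1762 lower and 1324 to 1510 higher. Members lower than control with WT ARGFX numbered 42 to 61 with a sample left out (6.40% to 7.11% of all genes) and 9 by glmTreat (2.58%), those lower with WT than with mutant ARGFX 12 to 23 (0.899% to 1.16%) and 0 (0.498%). ENSBTAG00000053808.1 reversed to 3.04 (edgeR adjusted p = 0.768) without WT ARGFX replicate 2, and without any other sample ran from −3.90 to −2.29, and that sample holds nearly all of its WT counts. The cause of the other changes was not tested.

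Same-numbered samples deviated together weakly (mean r 0.0105, −0.298 to 0.375 over 16 pairs), and 5 of 13 numbered samples correlated best with their own number. With the replicate number as a block, on those 13 samples, 38 members were lower with LEUTX than with WT ARGFX (39 without the block). Against control, 47 were lower with WT ARGFX (44) and 69 with LEUTX (69), and 16 were lower with WT than with mutant ARGFX (14). In that order, 10.7%, 5.59%, 13.4% and 0.945% of all genes were lower under the block, and 11.2%, 6.50%, 13.6% and 0.945% without it. ENSBTAG00000053808.1, not called without the block (−3.61, edgeR adjusted p = 0.348), became a call with it (−6.21, edgeR adjusted p = 0.000735). Over all genes 1545 were lower and 1390 higher with LEUTX under the block. Unwhole counts and low levels limit what can be said of single weakly expressed members.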
